A study of Homo sapiens with 6 samples.

Results

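Sodium-proton exchangers and bicarbonate transporters set the pH of a cell, and 8 genes of these families were followed in RNA-seq of HCC2814 cells: SLC9A5, SLC9A2, SLC9A7, SLC9A8, SLC9A9, SLC4A2, SLC4A7 and SLC4A11. They were matched by symbol among the 17448 genes listed, and all 8 were found. They were named as regulators of intracellular pH, and SLC9A5 was chosen by its large fall in estimated counts between these groups, so its difference is described without a test. HCC2814 is a human lung squamous cell carcinoma (LUSC) line of epithelial cells, and both groups were made from it. WT cells carried a non-targeting control sgRNA and MLST8-KO cells an sgRNA against MLST8, a subunit of the kinase complexes mTORC1 and mTORC2. Guides were delivered in the CRISPR lentivirus lentiCRISPR v2, followed by antibiotic selection, and all cells grew in DMEM with fetal bovine serum and penicillin-streptomycin. Each group held 3 numbered samples. For its western blots of HCC2814 the paper lists 3 numbered sgControl and 3 numbered sgMLST8 entries. Whether the sample numbers match those entries is not given in the sources used here. The labels do not say whether either group was a clone or a mixed population.

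Sodium-proton exchangers of the SLC9A family use an ion gradient to move protons across a membrane. At the cell surface they export acid in exchange for sodium, and in the Golgi and endosomes they let protons leak out of the lumen against the proton-pumping V-ATPase. The SLC4 family works on the base side of the buffer: sodium-bicarbonate cotransporters bring base into the cell, whereas chloride-bicarbonate exchangers send it out. Cancer cells that make much lactate are known to rely on such carriers to keep the cytosol alkaline while the surroundings turn acidic.

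The sequences before the transcription start are printed for SLC9A5, the gene with the steepest fall, and for SLC4A2 and SLC4A7, the other members whose difference held under every alternative tried. RefSeq promoters (GRCh38.p14) were found for 7 of the 8 members in 11 windows of 250 bases before a start, since SLC4A2 has 4 listed starts and SLC4A7 has 2. Printed are the bases of a window up to the first that lies in a GENCODE exon of the gene, read 5′ to 3′ on the strand of the gene, plus a short site of SLC9A5. The stretches of SLC9A5 and SLC4A2 lie in introns of transcripts with earlier GENCODE starts, whereas that of SLC4A7 lies outside the gene's span. Capitals mark CACGTG, the E-box, and GGGCGG, the GC box, on either strand. The stretch of SLC9A5 is chr16:67248729-67248871 (+ strand) and its site, inside the first exon of an alternative transcript, is chr16:67248907-67248936. The stretch of SLC4A2 lies before the third of its listed starts at chr7:151062297-151062546 (+ strand), and that of SLC4A7 before its first at chr3:27484421-27484634 (- strand).
SLC9A5 stretch: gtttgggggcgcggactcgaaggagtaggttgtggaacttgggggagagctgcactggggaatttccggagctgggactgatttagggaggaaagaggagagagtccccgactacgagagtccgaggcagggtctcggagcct
SLC9A5 site: gggagcgggcccCACGTGcctgtgacgcgg
SLC4A2 stretch: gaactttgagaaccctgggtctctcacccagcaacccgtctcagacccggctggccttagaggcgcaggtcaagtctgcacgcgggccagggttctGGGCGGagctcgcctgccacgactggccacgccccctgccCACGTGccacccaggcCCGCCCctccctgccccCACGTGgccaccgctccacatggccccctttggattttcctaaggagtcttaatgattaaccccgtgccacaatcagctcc
SLC4A7 stretch: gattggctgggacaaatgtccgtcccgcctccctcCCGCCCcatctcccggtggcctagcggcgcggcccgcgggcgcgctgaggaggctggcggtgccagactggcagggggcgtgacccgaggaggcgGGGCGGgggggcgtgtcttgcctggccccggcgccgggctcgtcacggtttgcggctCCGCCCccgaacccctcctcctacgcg

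SLC9A5 held 1 CACGTG, whose first base lay 60 bases before the RefSeq start. The SLC4A2 window printed held 2, at 114 and 81 bases before that start, and the last of its 4 windows, which overlaps that one, held 3. CACGTG was present in 3 of the 11 member windows, 1 of SLC9A5 and the 2 overlapping ones of SLC4A2, against 6.34% of all 35116 RefSeq windows of the same length. The shorter ACGTG, which every CACGTG contains on both strands, was found in the same 3 member windows and in 18.5% of all windows. GGGCGG was present in 7 of the 11 windows (of SLC9A2, SLC9A7, SLC9A8, SLC4A2 and SLC4A7), against 42.6% of all windows. CCAAT was found in 4 of the 11, of SLC9A5, SLC4A2 and SLC4A7, and in 32.0% of all windows. TATAAA (10.7% of all windows) and TGACGTCA (1.65%) were in 0 member windows. The GC content of 9 of the 11 member windows exceeded the median of 58.0% over all windows, and the other two, of SLC9A9 and of the second SLC4A7 start, were at 34.0% and 34.8%.

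Estimated counts summed to between 14381673 and 15744154 per sample, so that 3 counts, the limit allowed by a count of 0, correspond to 0.185 to 0.216 CPM for counting error only. MLST8 itself had 874, 827 and 842 counts in WT and 396, 629 and 401 in MLST8-KO samples (log2 fold change -0.96, SE 0.15, adjusted p = 0.00339, edgeR). Squamous epithelium markers were present, and their summed level was 10100 to 15300 TPM in WT and 18900 to 21000 TPM in MLST8-KO samples. Of these 8 markers 6 were higher, beside 16.3% of all genes tested, while EPCAM and CDH1 did not pass the test. The keratins KRT5, KRT14 and KRT6A weigh most in the sum, with WT means of 4522, 3262 and 3512 TPM. Of the immune markers, PTPRC had at most 1 count, while CD68 was expressed and lower in MLST8-KO samples. Liver, cartilage and intestine markers summed to 0.42 to 6.33 TPM in WT and 3.03 to 247 TPM in MLST8-KO samples, with MLST8-KO replicate 1 standing apart from the other libraries. Neuron markers summed to 29.8 to 36.6 TPM in WT and 44.3 to 58.0 TPM in MLST8-KO samples, with SYT1, TUBB3 and MAP2 higher and SNAP25 at 0 or 1 count. Endothelial markers summed to 0.81 to 1.11 and 0.47 to 0.83 TPM, and fibroblast markers to 9.86 to 11.0 and 10.7 to 12.7 TPM, in WT and MLST8-KO samples. The part of these markers in the results was not tested. These are bulk samples, in which fewer cells of a type and less RNA per cell cannot be told apart.

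Of the 8 members, 3 were lower and 3 higher in MLST8-KO cells by edgeR's quasi-likelihood test at an adjusted p under 0.05, with SLC9A5 among the lower by choice. Over all 12951 genes tested, 15.7% were lower and 16.3% higher, or 32.0% in either direction. SLC4A7 and SLC9A7 were the other lower genes, SLC4A2, SLC4A11 and SLC9A9 were higher, and SLC9A2 and SLC9A8 did not pass the test. The median log2 fold change of the members was 0.03, against 0.0045 over all genes tested. In 5 of the 8 genes the CPM (counts scaled by library size and TMM factors) of the 3 MLST8-KO samples did not overlap that of the 3 WT samples. SLC9A5 was again among these 5 by choice. The same was seen in 49.0% of all genes tested (24.2% below and 24.8% above WT). The number of higher members became 1 without WT replicate 2, WT replicate 3, MLST8-KO replicate 1 or MLST8-KO replicate 3, where 7.41%, 12.5%, 7.49% and 11.8% of all genes tested were higher.

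**Figure D1:**
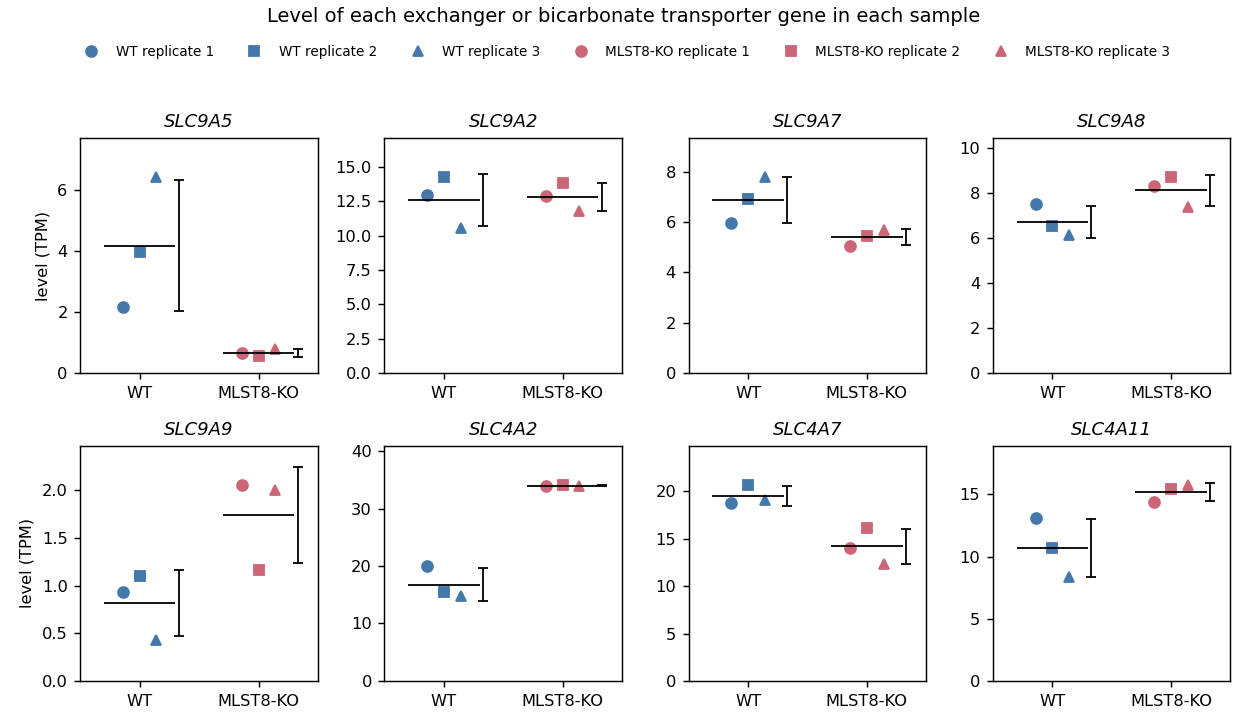
Level of each of the 8 genes in TPM (vertical axes, linear and from 0, each panel with its own scale) in the 3 WT and 3 MLST8-KO samples. Points are samples, horizontal lines are group means and bars show ± SD: SLC9A5 falls from a mean of 4.18 to 0.677 TPM and SLC4A2 rises from 16.7 to 34.0 TPM, while the SLC9A2 points of the groups overlap.

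SLC9A5 encodes NHE5, an exchanger known mainly from brain that moves between recycling endosomes and the cell surface (Entrez 6553, chr16:67237683-67272190, + strand, GRCh38). WT replicates 1, 2 and 3 gave 66, 116 and 194 counts, whereas the MLST8-KO replicates in the same order gave 20, 19 and 24. Per length these were levels of 2.16, 3.97 and 6.42 TPM in WT and 0.66, 0.56 and 0.81 TPM in MLST8-KO samples. Every MLST8-KO sample lay below every WT sample, and the WT samples were spread far more widely than the MLST8-KO samples. The mean level was 4.18 ± 2.14 TPM (SD, n = 3) in WT and 0.677 ± 0.126 TPM (SD, n = 3) in MLST8-KO samples. The fitted difference was a log2 fold change of -2.71 (SE 0.40), or 6.54-fold higher in WT. Without WT replicate 3, the highest sample, the log2 fold change was -2.21, and without WT replicate 1, the lowest of the WT samples, it was -3.03. It was -2.69 without MLST8-KO replicate 1.

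The GENCODE span of SLC9A5 overlaps that of FHOD1, a formin gene on the opposite strand, and whether reads were counted by strand is not given in the sources used here. FHOD1 did not pass the test (log2 fold change 0.24). Among the 3 protein-coding neighbours on each side of SLC9A5, 0 were lower by edgeR or DESeq2 (1 at an unadjusted p under 0.05 by edgeR) and 1 was higher. Over all genes tested, 15.7% were lower and 16.3% higher by edgeR, so counts among so few neighbours say little about the locus. The higher gene was PLEKHG4, which begins 5320 bases beyond SLC9A5 (log2 fold change 0.59, SE 0.11, adjusted p = 0.00561, edgeR). TMEM208 on the other side had a log2 fold change of -0.30 (adjusted p = 0.0914, edgeR), ELMO3 had 0.34 (adjusted p = 0.0941, edgeR) and LRRC29 had -0.39 (adjusted p = 0.47, edgeR). KCTD19 and LRRC36 had at most 2 counts in any sample and were not tested.

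SLC9A2 encodes NHE2, an epithelial exchanger of the cell surface (Entrez 6549, chr2:102619707-102711318, + strand). Its levels were 12.98, 14.24 and 10.55 TPM in WT and 12.85, 13.84 and 11.79 TPM in MLST8-KO samples. The groups overlapped, with means of 12.6 ± 1.88 and 12.8 ± 1.02 TPM (SD, n = 3 each). The fit to counts placed the log2 fold change at -0.08 (95% interval -0.32 to 0.15, adjusted p = 0.576, edgeR). On the log2(TPM + 1) scale, without TMM factors, it was 0.0318 (adjusted p = 0.868, limma), so the sign depended on the measure used.

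Among the exchangers of internal membranes, SLC9A7 (NHE7, of the trans-Golgi network, Entrez 84679, chrX:46599252-46759172, - strand) was lower. It reached 5.96, 6.93 and 7.78 TPM in WT and 5.05, 5.46 and 5.68 TPM in MLST8-KO samples. The groups did not overlap, and the gap between the lowest WT and the highest MLST8-KO sample was narrow. The mean fell from 6.89 ± 0.911 to 5.40 ± 0.320 TPM (SD, n = 3 each). The fit to counts gave a log2 fold change of -0.38 (SE 0.12, adjusted p = 0.033, edgeR), or 0.771-fold. The adjusted p by edgeR missed the threshold when WT replicate 2 (0.0857) or 3 (0.0838) or MLST8-KO replicate 1 (0.123), 2 (0.0865) or 3 (0.0565) was left out.

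SLC9A8 (NHE8, of the Golgi and the apical membrane, Entrez 23315, chr20:49812713-49892242, + strand) had levels of 7.53, 6.53 and 6.14 TPM in WT and 8.30, 8.71 and 7.38 TPM in MLST8-KO samples. The lowest MLST8-KO sample lay below the highest WT sample. The means were 6.73 ± 0.717 and 8.13 ± 0.681 TPM (SD, n = 3 each). In the fit to counts the log2 fold change was 0.14 (95% interval -0.09 to 0.36, adjusted p = 0.318, edgeR).

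SLC9A9 (NHE9, of recycling endosomes, Entrez 285195, chr3:143265222-143848531, - strand) was the rarest member in WT. It had 25, 30 and 11 counts in WT and 56, 32 and 57 counts in MLST8-KO samples, which were 0.93, 1.10 and 0.43 TPM and 2.06, 1.16 and 2.0 TPM. MLST8-KO replicate 2 was close to WT replicates 1 and 2, and by CPM it fell below WT replicate 2, at 1.98 against 2.07. The mean was 0.82 ± 0.348 TPM in WT and 1.74 ± 0.503 TPM in MLST8-KO samples (SD, n = 3 each). The fit to counts gave a log2 fold change of 1.02 (SE 0.35, adjusted p = 0.0488, edgeR), or 2.03-fold. This call rests on low counts and lies at the edge of the threshold. It was lost without WT replicate 2 (adjusted p = 0.0591, edgeR), WT replicate 3 (0.109), MLST8-KO replicate 1 (0.154) or MLST8-KO replicate 3 (0.15), and DESeq2 gave an adjusted p of 0.0549.

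SLC4A2 encodes AE2, a widely expressed exchanger that takes up chloride and releases bicarbonate, which lowers cytosolic pH (Entrez 6522, chr7:151057210-151076527, + strand). Its levels were 20.0, 15.44 and 14.70 TPM in WT and 33.92, 34.15 and 33.90 TPM in MLST8-KO samples. The MLST8-KO samples were almost identical in TPM, less so in CPM (70.06, 69.18 and 72.48), and all lay well above the WT samples. The mean rose from 16.7 ± 2.87 to 34.0 ± 0.139 TPM (SD, n = 3 each). The fit to counts gave a log2 fold change of 0.94 (SE 0.11, adjusted p = 0.00281, edgeR), or 1.91-fold. Leaving out each sample in turn kept it between 0.86 and 1.07 and the adjusted p at or under 0.021 (edgeR). The value was 0.94 without MLST8-KO replicate 1. The span of CDK5, on the opposite strand, overlaps the start of SLC4A2, and CDK5 did not pass the test (log2 fold change 0.11).

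SLC4A7 encodes NBCn1, which carries sodium and bicarbonate into the cell and so raises cytosolic pH (Entrez 9497, chr3:27372721-27484420, - strand). It stood at 18.75, 20.69 and 19.08 TPM in WT and 14.06, 16.13 and 12.36 TPM in MLST8-KO samples. The lowest WT sample was above the highest MLST8-KO sample. The mean fell from 19.5 ± 1.04 to 14.2 ± 1.89 TPM (SD, n = 3 each). The fit to counts gave a log2 fold change of -0.57 (SE 0.10, adjusted p = 0.00397, edgeR), or 0.673-fold. Without each sample in turn the log2 fold change ranged from -0.66 to -0.51 and the highest adjusted p was 0.026 (edgeR). It was -0.56 without MLST8-KO replicate 1.

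SLC4A11 belongs to the SLC4 family by sequence but is known to carry protons or hydroxide rather than bicarbonate, and its loss harms the corneal endothelium (Entrez 83959, chr20:3227417-3239559, - strand). Levels were 13.09, 10.66 and 8.39 TPM in WT and 14.38, 15.45 and 15.78 TPM in MLST8-KO samples. The groups did not overlap, but WT replicate 1 approached MLST8-KO replicate 1. The means were 10.7 ± 2.35 and 15.2 ± 0.732 TPM (SD, n = 3 each). In the fit to counts the log2 fold change was 0.42 (SE 0.14, adjusted p = 0.0435, edgeR), or 1.34-fold. The adjusted p by edgeR missed the threshold when WT replicate 2 (0.127) or 3 (0.0955) or MLST8-KO replicate 1 (0.0766), 2 (0.0977) or 3 (0.144) was left out.

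**Figure D2:**
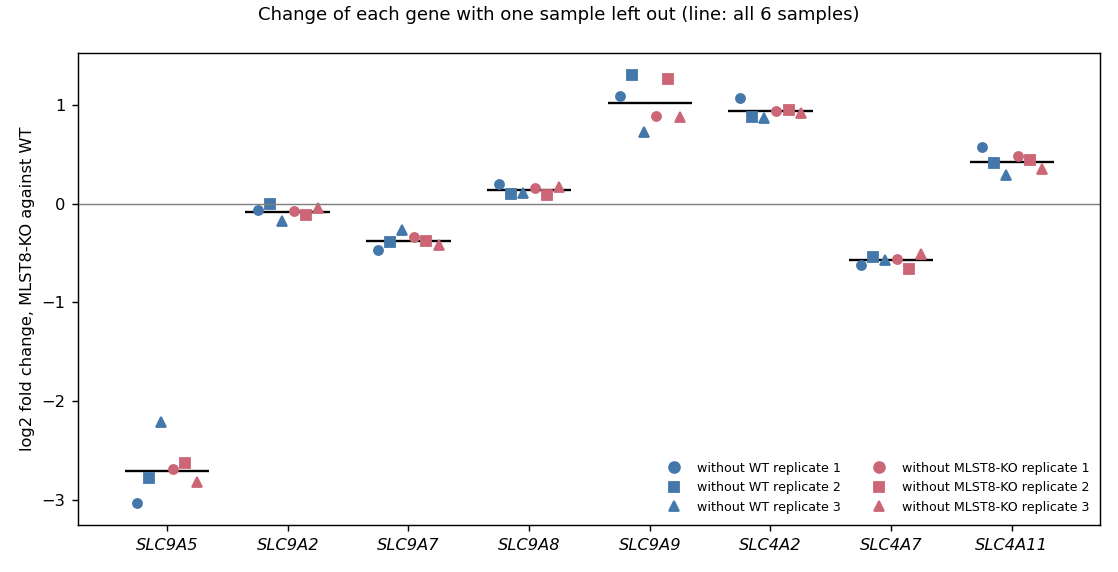
Log2 fold change of each gene, MLST8-KO against WT (vertical axis), from the fit to all 6 samples (horizontal lines) and with 1 sample left out (points, by the sample left out). SLC9A5 stays between -3.03 and -2.21 and SLC4A2 between 0.86 and 1.07, while SLC9A2 lies near 0.

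By level per length, SLC4A7 was the most abundant member in WT cells, followed by SLC4A2, SLC9A2, SLC4A11, SLC9A7, SLC9A8, SLC9A5 and SLC9A9. Sample ranges of neighbours in this order overlapped for SLC4A7 and SLC4A2, SLC9A2 and SLC4A11, SLC9A7 and SLC9A8, and SLC9A8 and SLC9A5. MLST8-KO cells had SLC4A2 first, then SLC4A11, SLC4A7, SLC9A2, SLC9A8, SLC9A7, SLC9A9 and SLC9A5, and only SLC4A11 and SLC4A7, and SLC4A7 and SLC9A2, overlapped. SLC4A2 thus went from the second to the first place and SLC9A5 from the seventh to the last.

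Within each sample, the level of the bicarbonate exporter SLC4A2 was set against that of the importer SLC4A7. The ratio of their TPM was 1.07, 0.746 and 0.77 in WT and 2.41, 2.12 and 2.74 in MLST8-KO samples, so the exporter transcript exceeded the importer transcript in every MLST8-KO sample and in 1 WT sample. For SLC4A11 over SLC4A7 the ratio was 0.698, 0.515 and 0.44 in WT and 1.02, 0.958 and 1.28 in MLST8-KO samples. These ratios combine differences already given and were not tested.

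SLC9A5 was set against other genes of its family. Among the 7 genes SLC9A2, SLC9A3, SLC9A4, SLC9A5, SLC9A7, SLC9A8 and SLC9A9 its rank by TPM was 5, 5 and 3 in the WT samples and 7 in all 3 MLST8-KO samples. Its share of their summed TPM was 5.65%, 9.85% and 16.9% in WT and 1.47%, 1.26% and 2.01% in MLST8-KO samples. The summed level itself was 38.22, 40.31 and 38.07 TPM in WT and 45.05, 44.57 and 40.31 TPM in MLST8-KO samples, so that the lowest MLST8-KO sample equalled the highest WT sample at this rounding.

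**Figure D3:**
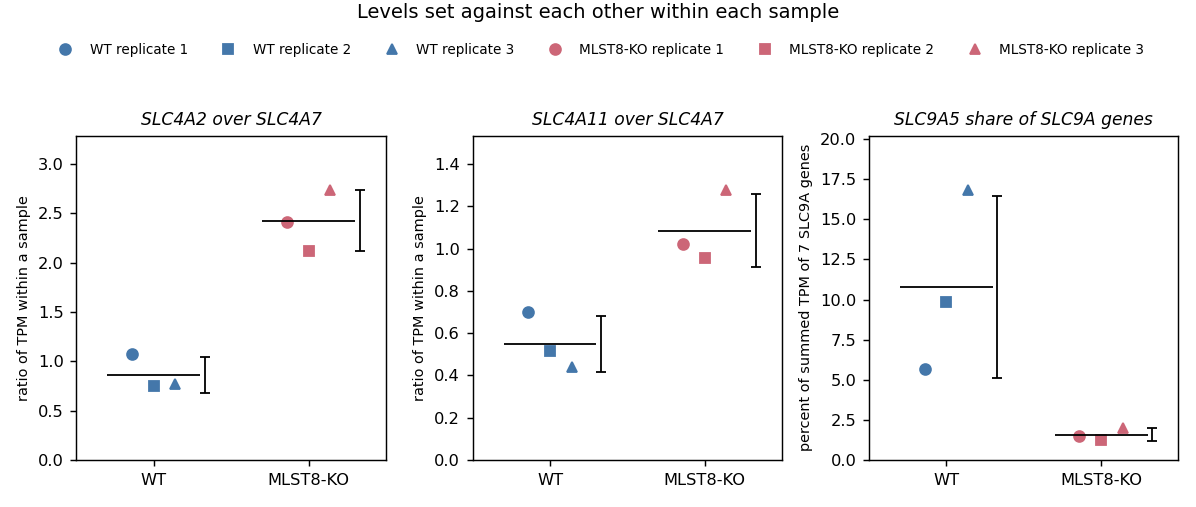
Left and middle, ratio of the TPM of SLC4A2 over SLC4A7 and of SLC4A11 over SLC4A7 in each sample; right, SLC9A5 as a percent of the summed TPM of these 7 SLC9A genes (all vertical axes linear, from 0). Points are samples, lines are group means and bars show ± SD: both ratios are higher in all 3 MLST8-KO samples, and the SLC9A5 share lies at 5.65% to 16.9% in WT and at 1.26% to 2.01% in MLST8-KO samples.

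The other genes of pH control were read from 10 lists. Of 109 genes, 103 were listed and 67 tested, of which 13 were lower and 11 higher, beside 15.7% lower and 16.3% higher among all genes tested. Their median log2 fold change was 0.01, against 0.0045 over all genes tested. The lower count became 18 without WT replicate 1, where 20.2% of all genes tested were lower. It became 6 without WT replicate 2 (7.97% of all genes) and 7 or 8 when MLST8-KO replicate 1 (6.5%) or 2 (8.35%) was left out. The higher count became 15 without WT replicate 1 (20.5% of all genes), 4 without WT replicate 2 (7.41%) and 7 without WT replicate 3 (12.5%). It was 4, 6 and 6 when MLST8-KO replicate 1, 2 or 3 was left out, beside 7.49%, 8.69% and 11.8% of all genes. Counts in the lists and over all genes thus moved the same way. Of the 24 genes called, SLC9A3, SCAMP2, WNK4, SLC16A3, EMB, ATP6V1C2, ATP6V0A1, ATP1B1 and TMEM206 kept their call under every alternative in which they were tested, and 15 lost it under at least 1.

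Among the other sodium-proton exchangers, SLC9A3 was higher. This gene (NHE3, the exchanger that absorbs sodium in kidney and gut) had 214, 181 and 182 counts in WT and 416, 385 and 341 in MLST8-KO samples, and rose from 6.12 ± 0.423 to 12.04 ± 1.48 TPM (SD, n = 3 each; log2 fold change 0.86, SE 0.12, adjusted p = 0.00281, edgeR). SLC9A4 (log2 fold change 0.58, adjusted p = 0.116, edgeR) and SLC9B2 (0.04, adjusted p = 0.834, edgeR) did not pass the test.

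Of 10 tested genes for proteins that bind or regulate the exchangers, 2 were lower and 2 higher. Among all genes tested, 15.7% were lower and 16.3% higher. SLC9A3R1 (NHERF1), a scaffold for SLC9A3, rose (log2 fold change 0.43, SE 0.14, adjusted p = 0.0376, edgeR), whereas EZR, which links such scaffolds to actin, fell (-0.37, SE 0.09, adjusted p = 0.0128, edgeR). The secretory carrier proteins SCAMP2 and SCAMP5, of a family known to bind exchangers, differed in direction: SCAMP2 fell (-0.39, SE 0.09, adjusted p = 0.00909, edgeR) and SCAMP5 rose (0.40, SE 0.13, adjusted p = 0.0349, edgeR). RACK1, the most abundant of the list, had a log2 fold change of -0.23 and did not pass the test.

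**Figure D4:**
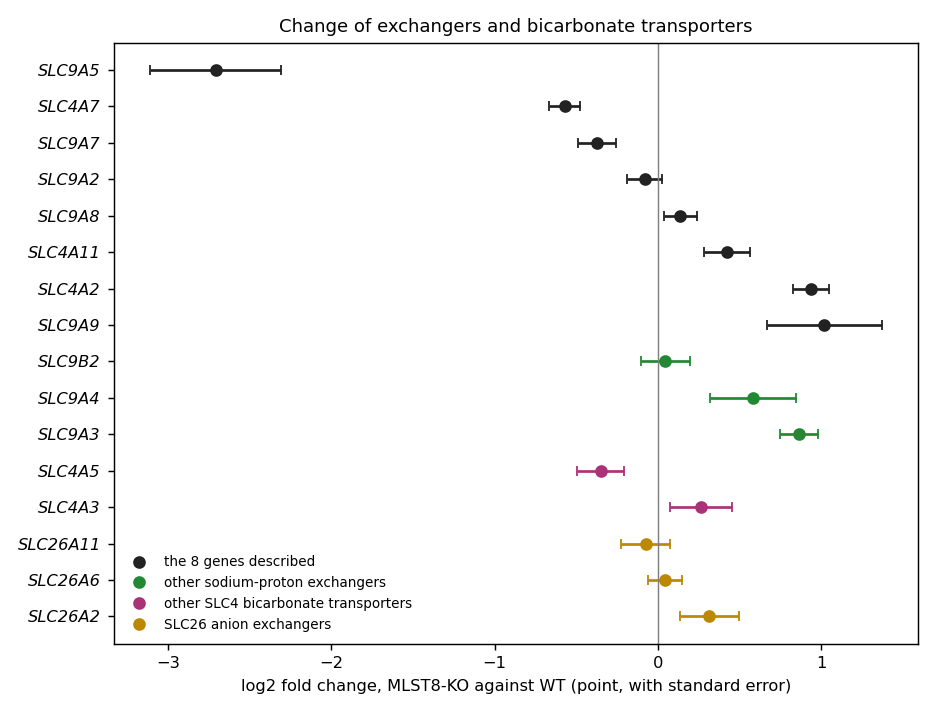
Log2 fold change, MLST8-KO against WT (horizontal axis), of the 8 genes and of further sodium-proton exchangers, SLC4 and SLC26 transporters. Points are edgeR estimates and bars are ± 1 standard error: SLC9A5 at -2.71 lies farthest from 0, and SLC9A3 at 0.86 and SLC4A2 at 0.94 lie to the right.

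No other carrier of bicarbonate that was tested passed the threshold, which 32.0% of all genes tested passed. Of the other SLC4 genes, 2 of 7 were tested and 0 were called by edgeR or DESeq2 (1 at an unadjusted p under 0.05), and the most abundant, SLC4A3 (AE3), had a log2 fold change of 0.26 (adjusted p = 0.302, edgeR). Of the SLC26 anion exchangers 3 were tested and 0 were called by edgeR or DESeq2 (0 at an unadjusted p under 0.05), with SLC26A6 at 0.04 (adjusted p = 0.776, edgeR). Carbonic anhydrases, which interconvert carbon dioxide and bicarbonate, had 3 of 12 genes tested and 0 called by edgeR or DESeq2 (0 at an unadjusted p under 0.05), and CA12, the most abundant, had a log2 fold change of 0.24 (adjusted p = 0.29, edgeR). CA9, the hypoxia-inducible form, had 0 counts in every sample but 1, where it had 1.

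Regulators of bicarbonate transport gave 3 lower and 2 higher genes among 8 tested, beside 15.7% lower and 16.3% higher of all genes tested. AHCYL1 (IRBIT), an activator of sodium-bicarbonate cotransport, fell (log2 fold change -0.30, SE 0.08, adjusted p = 0.015, edgeR) and its relative AHCYL2 rose (0.34, SE 0.10, adjusted p = 0.027, edgeR). The kinases STK39 (SPAK) and OXSR1, close relatives that act downstream of WNK kinases, also differed in direction, at 0.49 (SE 0.15, adjusted p = 0.0291, edgeR) and -0.27 (SE 0.08, adjusted p = 0.0311, edgeR). WNK4 had 19, 24 and 49 counts in WT and 7, 5 and 8 in MLST8-KO samples, a low-count gene whose log2 fold change was -2.31 (SE 0.47, adjusted p = 0.00703, edgeR).

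Lactate leaves the cell together with a proton through monocarboxylate transporters. Among 4 genes tested of these and their chaperones, 1 was lower and 1 higher, beside 15.7% and 16.3% of all genes tested. SLC16A3 (MCT4), the exporter of glycolytic cells, had 121, 133 and 145 counts in WT and 77, 60 and 94 in MLST8-KO samples, and fell from 8.67 ± 0.984 to 4.96 ± 1.06 TPM (SD, n = 3 each; log2 fold change -0.91, SE 0.20, adjusted p = 0.00855, edgeR). EMB, a chaperone of these transporters, rose (0.53, SE 0.11, adjusted p = 0.00786, edgeR). SLC16A1 (MCT1), far more abundant than SLC16A3, had a mean of 124.9 TPM in WT and 123.9 TPM in MLST8-KO samples. It did not pass the test (log2 fold change -0.12, adjusted p = 0.233, edgeR). The chaperone BSG, far more abundant than EMB, had a log2 fold change of -0.15 and did not pass the test (adjusted p = 0.183, edgeR).

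V-ATPase subunits, which acidify the compartments where SLC9A7, SLC9A8 and SLC9A9 reside, had 4 lower and 2 higher genes among 22 tested. Beside these stand 15.7% lower and 16.3% higher of all genes tested. The median log2 fold change of the subunits was 0.00. Lower were ATP6V1C2 (-0.63, adjusted p = 0.00397, edgeR), ATP6V1D (-0.46), ATP6V0B (-0.37) and ATP6V1B2 (-0.30). ATP6V0A1, a subunit of the membrane sector, rose (0.67, adjusted p = 0.00675, edgeR), as did ATP6V0D1 (0.25), while ATP6V0E1, the most abundant, had 0.01. Among genes of the sodium-potassium pump, the beta subunits ATP1B1 and ATP1B3 rose by a log2 fold change of 0.85 (adjusted p = 0.00678, edgeR) and 0.64 (adjusted p = 0.0114, edgeR). ATP1B2, with 4 to 19 counts per sample, had -1.26 (adjusted p = 0.038, edgeR). Of the proton-sensing receptors and proton channels, 1 of 6 tested was lower, beside 15.7% of all genes tested. It was TMEM206 (PACC1), an acid-activated chloride channel (-0.47, SE 0.09, adjusted p = 0.00524, edgeR).

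The genes whose pattern over the 6 samples was most like that of SLC9A5, by Pearson's r of log2(CPM + 0.5) among 11190 genes with a mean of at least 50 counts, were RAB1A (0.9995), EEF1AKMT4 (0.9991), PRSS22 (0.9989), SLC35C1 (0.9986) and STX16 (0.9981). Their log2 fold changes were -0.46, -0.79, -1.79, -0.23 and -0.47, so all 5 were lower by less than SLC9A5. The 6 points share 2 groups and their libraries, and r reflects the group difference as well as the spread among WT samples. PRSS22, a serine protease of airway epithelium, had 187, 272 and 404 counts in WT and 91, 82 and 101 in MLST8-KO samples. In counts, WT replicate 3 was the highest and WT replicate 1 the lowest WT sample for all 5 genes, as for SLC9A5. Their choice by r favours such a shared order. Among the members, r with SLC9A5 was 0.972 for SLC9A7, 0.888 for SLC4A7, 0.0297 for SLC9A2, -0.83 for SLC9A8, -0.919 for SLC4A11 and -0.977 for SLC4A2. SLC9A9, with a mean under 50 counts, was not compared.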

How the data were processed

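RNA-seq libraries (polyA selection, DNBSEQ) were made from 3 WT and 3 MLST8-KO samples, grouped by their labels. Reads were filtered by the authors, aligned with HISAT to GRCh38.p12 and given to reference genes by Bowtie2; the counter and annotation are not given in the sources used here. They deposited estimated counts, FPKM (not used here) and TPM per gene and sample, plus a table of their own fold changes and p-values, which was not used. The design was written for whole counts, but 12.4% of the deposited values were not whole, so estimated counts were rounded. There were 25 symbols turned into dates, which were restored through Entrez identifiers.

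Counts were tested with edgeR 4.0.16 in R 4.3.3 (TMM, filterByExpr, glmQLFit, glmQLFTest) over 12951 genes, with Benjamini-Hochberg adjustment and a threshold of 0.05. SE was taken from the log2 fold change and the root of its F statistic. Log2 fold changes and folds come from the fit to counts unless a log2(TPM) scale is named. TPM were used as deposited, without the TMM factors (0.964 to 0.985 in WT, 1.011 to 1.029 in MLST8-KO samples). Ratios of TPM means therefore differ from the fitted folds. P-values measure the spread between these samples. Alternatives were DESeq2 1.42.0; edgeR with DESeq2's size factors, with upper quartile scaling, unfiltered, filtered at 10 counts per sample, or with a replicate block; limma 3.58.1 on log2(TPM + 1) and log2(TPM + 0.1); and each sample left out. The fit was tested on simulated counts. The members and lists were chosen with earlier results of these data known. The named genes were the members, listed genes past the threshold, the most abundant gene per list, neighbours and overlapping genes of members, MLST8, and the 5 genes most like SLC9A5. Markers, CA9 and SLC16A1 were added as context, CA9 and SLC16A1 after their values were seen. Gene coordinates are GENCODE's and promoters RefSeq's. Figures were drawn with matplotlib 3.10.9. Some items are not reported here.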

Additional observations from a re-analysis of the deposited data

How the results depend on the processing

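Of the 14 alternatives, SLC4A2 and SLC4A7 kept their call under all, SLC9A7 under 6, and SLC9A9 and SLC4A11 under 8 each. SLC9A2 turned from -0.08 to 0.0318 with limma on log2(TPM + 1) and to 0.0346 on log2(TPM + 0.1), without passing the test in any fit. The log2 fold change of SLC9A5 was -1.55 on log2(TPM + 1), where the pseudocount compresses low levels, and -3.03 to -2.21 with a sample left out. With a sample left out, 2 to 3 members were lower, 1 to 3 higher, 6 to 18 other pH genes lower and 4 to 15 higher. Under limma, 7 other pH genes were lower with either pseudocount. SLC9A7 missed the threshold with upper quartile scaling (adjusted p = 0.0507, edgeR) and on log2(TPM + 1) (adjusted p = 0.0957, limma). Over all genes tested, upper quartile scaling gave 1559 lower and 2546 higher, and limma on log2(TPM + 1) gave 1134 lower and 2782 higher, against 2030 and 2116. Leaving out a sample gave between 1829 (without MLST8-KO replicate 1) and 5343 (without WT replicate 1) genes called, against 4146. The cause of these shifts was not tested.

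Deviations of same-numbered samples correlated at 0.0966, 0.0654 and 0.146, and each correlated best with its own number, a hint from the data and not the design. The labels give only a number, so these values cannot decide whether same-numbered samples were paired. The main fit had no block. With a replicate block, 1 member was higher and SLC9A9 (adjusted p = 0.0638, edgeR) and SLC4A11 (adjusted p = 0.0528, edgeR) passed no threshold, SLC9A5 was at -2.64, and 4418 genes were called. With counts of 11 to 57, SLC9A9 is the member whose value depth limits most. The chi-square per gene was 26.5 between WT replicates 1 and 3 and 6.98 to 10.2 between the other pairs of replicates. All were beyond counting noise, and no sample was merged. Of the members called, SLC9A5, SLC9A7, SLC4A2 and SLC4A11 had WT replicate 1 nearest the MLST8-KO samples in TPM and WT replicate 3 farthest. SLC4A7 and SLC9A9 did not follow this order, and its cause was not tested.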
